A study of Mus musculus with 27 samples.

Results

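Of 18193 mouse genes represented on the arrays, 8 were followed as regulators and markers of fat cells: Pparg, Cebpa, Cebpb, Cebpd, Fabp4, Adipoq, Lpl and Cd36. They were taken by name, with earlier results of these data known. Where a gene had several probe sets, the one of highest mean log2 intensity over the 27 arrays stood for it, out of 16 probe sets annotated to a single one of these symbols. A gene was tested where log2 intensity reached 5 on at least 3 arrays, which 15711 genes did, all 8 followed here among them. The cells were KUSA4b10, an established line of mouse marrow stromal cells, and all arrays came from this line. Cultures were left untreated or received PTH(1–34), an N-terminal fragment of parathyroid hormone, at 10 nM, or PTHrP(1–141), an extended form of the related protein, at 20 nM. RNA was taken after 1, 6 or 24 h, and untreated cells were collected at each time, which gave 9 groups of 3 arrays. Dose and peptide length change together with the ligand, so the 3 cannot be told apart when PTHrP is set against PTH. The sources used here give neither culture medium, passage and state of differentiation nor whether replicates were separate cultures. The p-values therefore judge differences against the spread among these replicates, and that spread may be technical only.

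Marrow stromal cells can give rise to osteoblasts or to adipocytes. In the textbook order of fat cell formation, the transcription factors C/EBP beta and C/EBP delta appear early and induce C/EBP alpha and PPAR gamma, which sustain each other and switch on the genes of the mature cell. Among those genes are the fatty acid carrier FABP4, the secreted hormone adiponectin (Adipoq), the fatty acid transporter CD36 and lipoprotein lipase (Lpl), which frees fatty acids from circulating lipoproteins. PTH and PTHrP share a receptor, the product of Pth1r, that raises cyclic AMP, and cyclic AMP acts on genes through CREB, a factor that binds the CRE motif.

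The sequences just before the transcription starts of 3 of the transcription factor genes are shown as a description, chosen with the changes of their mRNAs known. They are 250 bases long, 5′ to 3′ on the gene's strand, from RefSeq on GRCm38.p6, and the table used holds 7 such stretches for 5 of the 8 genes. It holds none for Cebpd, whose mRNA rose as that of Cebpb did, and none for Fabp4 and Lpl. Capitals mark matches to TGACG, the core of the CRE, to the full CRE TGACGTCA, which contains that core on both strands, or to TTGCNNAA, a C/EBP motif, each searched on both strands.
Cebpb: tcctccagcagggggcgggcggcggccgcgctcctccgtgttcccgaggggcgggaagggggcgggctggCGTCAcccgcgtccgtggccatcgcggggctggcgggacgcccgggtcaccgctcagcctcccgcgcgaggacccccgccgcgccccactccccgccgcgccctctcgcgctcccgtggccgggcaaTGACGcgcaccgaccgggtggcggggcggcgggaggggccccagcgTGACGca
Pparg start 3: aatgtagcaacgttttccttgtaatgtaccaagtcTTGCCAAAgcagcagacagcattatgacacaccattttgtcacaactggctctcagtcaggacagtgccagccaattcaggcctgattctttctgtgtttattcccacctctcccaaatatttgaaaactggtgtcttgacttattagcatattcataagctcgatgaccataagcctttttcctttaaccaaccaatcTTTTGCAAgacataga
Cebpa: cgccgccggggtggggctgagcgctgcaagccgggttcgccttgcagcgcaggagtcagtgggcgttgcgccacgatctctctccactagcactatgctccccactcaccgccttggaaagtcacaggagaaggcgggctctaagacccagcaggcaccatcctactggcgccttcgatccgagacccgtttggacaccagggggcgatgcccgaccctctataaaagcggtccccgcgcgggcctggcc
The Cebpb stretch lies at chr2:167688665-167688914 on the plus strand and held 3 TGACG matches, at 180 to 176 bases before the start on the minus strand and at 53 to 49 and 7 to 3 bases on the plus strand. The stretch before Pparg start 3, at chr6:115421816-115422065 on the plus strand, held 2 TTGCNNAA matches, at 215 to 208 and at 16 to 9 bases before the start. The Cebpa stretch, at chr7:35119043-35119292 on the plus strand, held no match to these letters, nor did those before the other Pparg starts and before Adipoq and Cd36. Over 32851 promoters of this length, 17.8% held TGACG, 1.55% the full CRE and 9.56% TTGCNNAA. A match describes letters in the sequence and says nothing about binding in these cells. Whether matches go with the changes of the mRNAs was not tested, and without Cebpd these stretches cannot show it.

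The median intensity of an array lay between 83.15 and 91.08. Within groups, log2 values of 2 arrays correlated at 0.992 to 0.9978 across genes, which are not independent replicates. Replicate 3 with PTHrP at 1 h was the exception, with a correlation down to 0.9831. Of 10 listed osteoblast and stromal markers 8 were on the arrays, and all passed the filter. Collagen genes of stromal cells were bright, with a mean log2 intensity of 14.52 for Col1a1. The others ran from 14.15 for Sparc down to 10.02 for Sp7 and 7.07 for Dmp1, which lay between 3.73 and 9.55 on single arrays. Of 12 macrophage markers 9 passed the filter and 3 did not (Ptprc, Itgam and Mrc1, with means of 4.15, 4.08 and 4.24). The brightest macrophage markers were Csf1r (7.87), Laptm5 (7.55), Cd14 (7.45) and Lyz2 (7.05). Of 10 endothelial markers 8 passed, led by Kdr (6.89), Ptprb (6.48) and Cldn5 (6.29), while Tek and Vwf, at 4.82 and 4.69, did not. Most stromal markers were thus brighter than those of the other cell types, but Dmp1 was no brighter than the brightest macrophage markers. Markers of the other cell types ranged from below the filter to intermediate intensity.

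Cebpb and Cebpd, the early members of the cascade, were higher with both peptides at all 3 times. They were the only ones of the 8 genes to rise against untreated cells in any of these 6 comparisons. Both peptides brought 2 members up and 0 down at 1 h, when 1.44% of all genes tested rose with PTH and 1.57% with PTHrP, and 0.299% and 0.248% fell (1.74% and 1.81% in either direction). The 2 genes stayed up at 6 h, when 11.4% of genes rose with PTH and 8.7% with PTHrP, and at 24 h, when 5.69% and 3.09% did.

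Cebpb (gene ID 12608, chr2:167688915-167690432) encodes C/EBP beta. At 1 h its log2 intensity was 11.35, 10.93 and 11.14 in untreated cells, 12.16, 12.39 and 12.16 with PTH, and 12.19, 11.96 and 12.18 with PTHrP. At 6 h it was 10.06, 10.22 and 10.05 untreated, 12.09, 12.33 and 12.20 with PTH, and 11.94, 11.58 and 11.74 with PTHrP. After 24 h Cebpb was 11.67, 11.43 and 11.31 untreated, 12.14, 12.17 and 12.10 with PTH, and 12.12, 11.94 and 11.97 with PTHrP. Every treated array lay above every untreated array of its time, and the untreated arrays at 6 h were the lowest of the series. In the limma fit, PTH raised Cebpb by 1.10 ± 0.11 log2 units at 1 h (SE, adjusted p = 2.39e-07), by 2.10 ± 0.11 at 6 h (adjusted p = 2.45e-13) and by 0.67 ± 0.11 at 24 h (adjusted p = 0.000139). PTHrP raised it by 0.97 ± 0.11 (adjusted p = 1.96e-06), 1.65 ± 0.11 (adjusted p = 5.12e-11) and 0.54 ± 0.11 (adjusted p = 0.00232) at the same times. The peak at 6 h, 4.29-fold with PTH and 3.13-fold with PTHrP, was measured against an untreated level that had itself dropped by 1.03 ± 0.11 from 1 h (adjusted p = 2.33e-06). Group means with PTH were 12.24, 12.21 and 12.14 at 1, 6 and 24 h. In a test against a change of 1.5-fold, the calls for PTH at 24 h and PTHrP at 1 and 24 h were lost.

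A second probe set of Cebpb, with a mean of 10.51, was called higher in the same 6 comparisons. Its differences were 1.24, 2.29 and 0.74 with PTH and 1.22, 1.78 and 0.58 with PTHrP. It also fell by 1.00 in untreated cells from 1 to 6 h.

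Cebpd (gene ID 12609, chr16:15887286-15889545) encodes C/EBP delta, the partner of C/EBP beta in the early phase. At 1 h its log2 intensity was 9.42, 8.72 and 8.99 untreated, 11.13, 10.86 and 10.66 with PTH, and 10.43, 10.57 and 10.86 with PTHrP. At 6 h it was 8.78, 8.40 and 8.42 untreated, 10.48, 10.88 and 10.70 with PTH, and 10.20, 9.93 and 9.93 with PTHrP. After 24 h Cebpd was 8.67, 8.12 and 8.24 untreated, 9.86, 9.73 and 9.90 with PTH, and 10.03, 10.06 and 9.75 with PTHrP. All 18 treated arrays were above all 9 untreated arrays, whatever the time. PTH raised Cebpd by 1.84 ± 0.17 at 1 h (adjusted p = 3.42e-08), 2.15 ± 0.17 at 6 h (adjusted p = 2.38e-10) and 1.49 ± 0.17 at 24 h (adjusted p = 5.99e-07), which is 3.58-fold, 4.45-fold and 2.81-fold. PTHrP raised it by 1.58 ± 0.17 (adjusted p = 5.12e-07), 1.49 ± 0.17 (adjusted p = 2.81e-07) and 1.61 ± 0.17 (adjusted p = 3.34e-07). The calls for both genes against untreated cells held without each array in turn. A second Cebpd probe set with a mean of 6.12 showed no call, with a largest difference of 0.24 for PTHrP at 1 h.

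**Figure D1:**
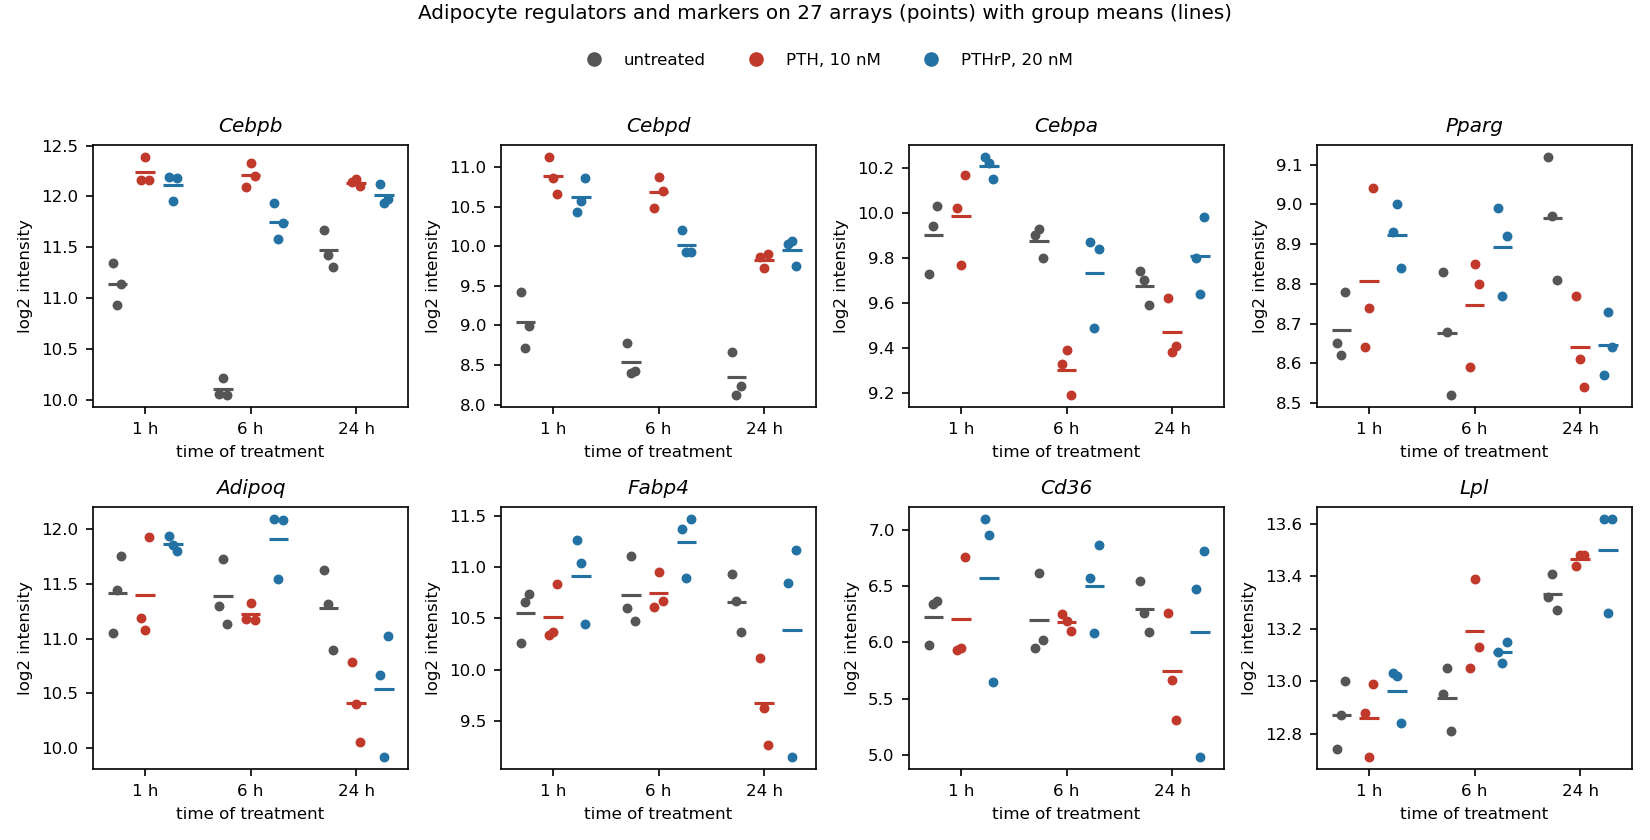
Log2 intensity of the 8 genes (vertical axis, a separate range for each gene) against time of treatment in hours, with 1 point per array and a line at each group mean, for untreated cells (grey), PTH at 10 nM (red) and PTHrP at 20 nM (blue). Treated arrays of Cebpb and Cebpd lie above the untreated arrays at each time, untreated Cebpb is lowest at 6 h with a mean of 10.11, and Adipoq and Fabp4 with PTH are lowest at 24 h, with means of 10.42 and 9.67.

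The later regulators took another course. Cebpa fell with PTH at 6 h and Pparg with PTH at 24 h, and neither passed the threshold with PTHrP at any time at the settings used throughout. Under other settings Pparg passed with PTHrP at 6 and 24 h, and Cebpa at 1 h. At 6 h, 17.9% of all genes tested fell with PTH (29.3% were called in either direction), and at 24 h 5.96% fell (11.6% in either direction).

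Cebpa (gene ID 12606, chr7:35119293-35121928) encodes C/EBP alpha, which with PPAR gamma maintains the fat cell state. At 6 h it measured 9.90, 9.93 and 9.80 in untreated cells, 9.33, 9.39 and 9.19 with PTH, and 9.87, 9.49 and 9.84 with PTHrP. The PTH arrays lay below all others of that time, while the PTHrP arrays overlapped the untreated ones. The difference was -0.57 ± 0.11 with PTH (adjusted p = 0.000228), a 1.49-fold fall, and -0.14 ± 0.11 with PTHrP (adjusted p = 0.404). At 1 h untreated cells measured 9.73, 9.94 and 10.03, PTH 10.02, 9.77 and 10.17, and PTHrP 10.25, 10.22 and 10.15. The PTHrP arrays were above the untreated ones, by 0.30 ± 0.11, but the adjusted p was 0.283 (0.0441 with array weights). At 24 h the difference was -0.21 ± 0.11 with PTH (adjusted p = 0.284, and 0.0283 with array weights) and 0.13 ± 0.11 with PTHrP (adjusted p = 0.709). The fall at 6 h held without each array in turn, with adjusted p from 8.86e-05 to 0.00249, and was lost in the test against 1.5-fold.

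Pparg (gene ID 19016, chr6:115360879-115490404) encodes PPAR gamma, the nuclear receptor that drives fat cell formation. Its 9 group means spanned 0.33 log2 units, the narrowest range of the 8 genes. At 24 h it measured 9.12, 8.97 and 8.81 untreated, 8.77, 8.61 and 8.54 with PTH, and 8.57, 8.73 and 8.64 with PTHrP. All treated arrays were below all untreated arrays of that time. The untreated mean at 24 h, 8.97, was the highest of the 9 groups. With PTH and PTHrP at 24 h the means were 8.64 and 8.65, close to 8.68 and 8.67 in untreated cells at 1 and 6 h. The differences were nearly equal, -0.33 ± 0.11 with PTH and -0.32 ± 0.11 with PTHrP, and fell on either side of the threshold, with adjusted p = 0.0419 and 0.0767. With PTHrP at 1 h the arrays measured 8.93, 9 and 8.84 against 8.65, 8.62 and 8.78 untreated. These groups did not overlap, and the difference of 0.24 ± 0.11 had an adjusted p of 0.462. The PTH call at 24 h was lost with median centring (adjusted p = 0.126), with only the arrays compared in the fit (adjusted p = 0.0779), with a replicate block within each time (adjusted p = 0.0681) or over all times (adjusted p = 0.0576) and in the test against 1.5-fold. It was also lost without untreated replicate 1 or 2 at 24 h, untreated replicate 2 at 6 h, PTH replicate 2 or 3 at 24 h, or PTHrP replicate 3 at 6 h, with adjusted p from 0.0251 to 0.212 over the 27 fits that each left out 1 array. The PTHrP difference at 24 h passed without untreated replicate 3 at 24 h or PTH replicate 3 at 1 h, with adjusted p from 0.048 to 0.345 over these fits. It also passed with quantile normalization (-0.36, adjusted p = 0.0076), cyclic loess (-0.35, adjusted p = 0.00872) and array weights (-0.30, adjusted p = 0.0186). Under the same 3 settings Pparg was called higher with PTHrP at 6 h, by 0.26, 0.27 and 0.25 (adjusted p = 0.0283, 0.0227 and 0.00501).

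Of the products of mature fat cells, Adipoq, Fabp4 and Cd36 had their lowest group means after 24 h of PTH. Adipoq fell there, Fabp4 and Cd36 were lower without passing the threshold, and Lpl was not lower. In RNA from whole cultures, fewer cells of a type and less RNA per cell cannot be told apart.

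Adipoq (gene ID 11450, chr16:23146536-23157968) encodes adiponectin. After 24 h its log2 intensity was 11.62, 11.31 and 10.90 in untreated cells, 10.79, 10.40 and 10.06 with PTH, and 10.67, 9.92 and 11.02 with PTHrP. All PTH arrays were below all untreated arrays, by a narrow margin at the nearest pair, and 1 of the 3 PTHrP arrays reached into the untreated range. Adipoq fell by 0.86 ± 0.26 with PTH (adjusted p = 0.0276, 1.81-fold), and the PTHrP difference was -0.74 ± 0.26 (adjusted p = 0.0987). At 6 h the untreated arrays measured 11.30, 11.72 and 11.13, PTH 11.18, 11.32 and 11.17, and PTHrP 12.09, 11.54 and 12.08. The differences at 6 h were -0.16 ± 0.26 with PTH and 0.52 ± 0.26 with PTHrP (adjusted p = 0.735 and 0.168). The latter passed with only the arrays compared (0.0346) and with array weights (0.00881). At 1 h PTHrP gave 11.93, 11.85 and 11.80 against 11.05, 11.44 and 11.75 untreated, a difference of 0.45 ± 0.26 (adjusted p = 0.604) with no overlap. The PTH call at 24 h was lost without untreated replicate 1 or 2 or PTH replicate 2 or 3 of that time, with differences from -1.05 to -0.68 and adjusted p from 0.0131 to 0.153, and in the test against 1.5-fold. Without PTHrP replicate 3 at 24 h the PTHrP difference was -0.98 and passed (adjusted p = 0.0295), and without PTHrP replicate 2 it was -0.43 (adjusted p = 0.574).

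Fabp4 (gene ID 11770, chr3:10204342-10208616) encodes the fatty acid binding protein of adipocytes, which carries fatty acids inside the cell. At 24 h it measured 10.93, 10.67 and 10.37 untreated, 10.12, 9.63 and 9.27 with PTH, and 10.85, 9.15 and 11.17 with PTHrP. The PTH arrays were all below the untreated arrays, and PTHrP replicate 2 was the lowest array of the series for this gene while replicate 3 was above the untreated range. The difference with PTH was -0.98 ± 0.34, 1.98-fold, with an adjusted p of 0.0627. The PTHrP difference was -0.27 ± 0.34 (adjusted p = 0.825), and without replicate 2 it was 0.35 (adjusted p = 0.729). The PTH difference passed the threshold without PTH replicate 1 or PTHrP replicate 2 or 3 at 24 h or PTHrP replicate 3 at 1 h, with adjusted p from 0.00493 to 0.242 over the fits that left out 1 array. It also passed with quantile normalization (0.0468), an intensity trend (0.0463), only the arrays compared (0.00823) and array weights (0.000639). A second bright Fabp4 probe set, with a mean of 10.21, gave -0.97 ± 0.31 for PTH at 24 h and passed (adjusted p = 0.0428). The remaining Fabp4 probe sets, with means of 5.36 and 5.76, showed no call. At 6 h the main probe set gave 0.02 ± 0.34 with PTH and 0.51 ± 0.34 with PTHrP (adjusted p = 0.985 and 0.323). The latter passed with only the arrays compared (0.0427) and with array weights (0.031). The second bright probe set gave 0.41 ± 0.31 with PTHrP at 6 h (adjusted p = 0.399).

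Cd36 (gene ID 12491, chr5:17781690-17888959) encodes a membrane protein that takes up fatty acids. Its probe set was dim, between 4.98 and 7.10 on single arrays. Its arrays at 24 h measured 6.55, 6.26 and 6.09 untreated, 6.26, 5.67 and 5.31 with PTH, and 6.48, 4.98 and 6.81 with PTHrP. These groups overlapped, and the differences were -0.55 ± 0.38 with PTH (adjusted p = 0.448) and -0.21 ± 0.38 with PTHrP (adjusted p = 0.891). The 95% interval for PTH, from -1.33 to 0.22, leaves a wide range of changes that these arrays could not detect. None of the 15 comparisons called Cd36 at the settings used throughout. With array weights, which count noisier arrays less, the PTH difference at 24 h was -0.84 and passed (adjusted p = 0.0168). Its other probe sets, with means of 5.56 and 3.55, gave no call.

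Lpl (gene ID 16956, chr8:68880555-68906932) encodes lipoprotein lipase. At 6 h it measured 12.95, 13.05 and 12.81 untreated, 13.05, 13.39 and 13.13 with PTH, and 13.11, 13.07 and 13.15 with PTHrP. At 24 h it measured 13.32, 13.41 and 13.27 untreated, 13.44, 13.48 and 13.48 with PTH, and 13.62, 13.26 and 13.62 with PTHrP. The differences from untreated cells ran from -0.01 to 0.25 over the 6 comparisons, with SE of 0.10, and the largest, with PTH at 6 h, had an adjusted p of 0.0645. It passed under 5 alternatives, cyclic loess, an offset of 50, array weights, an intensity trend and the omission of both PTHrP arrays that stood apart (replicate 3 at 1 h and replicate 2 at 24 h). It also passed without untreated replicate 2 or PTH replicate 1 of 6 h, or without PTHrP replicate 2 of 24 h, with adjusted p from 0.0322 to 0.349 over the fits that left out 1 array. At 24 h, the interval of the difference was -0.08 to 0.34 with PTH and -0.04 to 0.38 with PTHrP, so a fall of the size fitted for Adipoq lies outside both. The Lpl difference with PTHrP at 6 h, 0.17 ± 0.10 (adjusted p = 0.254), passed with array weights (0.0445). A second Lpl probe set, with a mean of 11.47, was called in none of the 6 comparisons. It gave -0.11, 0.33 and 0.29 with PTH at 1, 6 and 24 h (adjusted p = 0.847, 0.0765 and 0.204). With PTHrP it gave -0.02, 0.18 and 0.35 (adjusted p = 0.971, 0.391 and 0.171).

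In all, 2 of the 8 genes rose and 0 fell with PTH at 1 h, 2 rose and 1 fell at 6 h, and 2 rose and 2 fell at 24 h. With PTHrP 2 rose and 0 fell at each time, when 12.2% of all genes tested fell at 6 h and 3.02% at 24 h (20.9% and 6.1% were called in either direction). At an unadjusted p under 0.05, 0 members were lower with PTH at 1 h, and with PTHrP 0 were lower at 1 h, 0 at 6 h and 2 at 24 h. The median difference of the 8 genes was 0.04, 0.04 and -0.27 with PTH at 1, 6 and 24 h, against -0.02, 0 and 0 for all genes. With PTHrP it was 0.35, 0.41 and -0.04, against 0.01, 0.03 and -0.01. The same untreated arrays enter both sets of comparisons. The groups did not overlap for 2, 3 and 6 of the 8 genes with PTH at 1, 6 and 24 h, where 17.3%, 43.9% and 27% of all genes tested did not. With PTHrP they did not overlap for 5, 3 and 3, where 12.8%, 39.9% and 26.4% of all genes did not. At 6 h, 3 of 8 was thus near the share of all genes with either peptide, and with PTHrP at 24 h it was close to it too.

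Osteoblast and stromal markers and a measure of the RNA also differed between some of the groups. Sums of markers are of linear intensities, so the brightest genes weigh most in them. At 24 h the summed intensity of the 8 osteoblast and stromal markers tested, of 10 listed, was 75975 to 77182 in untreated cells, 50074 to 52642 with PTH and 57105 to 66796 with PTHrP, and all 8 fell with PTH and 5 with PTHrP. Of all genes tested, 5.96% fell with PTH and 3.02% with PTHrP at that time. The 12 macrophage markers summed to 1072 to 1134, 990 to 1234 and 1084 to 1119, and the 10 endothelial markers to 520 to 531, 499 to 596 and 492 to 509. The 3′ probe set of Actb exceeded the 5′ probe set by 0.36 to 0.39 log2 units untreated, 0.41 to 0.43 with PTH and 0.43 to 0.45 with PTHrP, a measure that rises as RNA breaks down. At 6 h the osteoblast sums were 90276 to 93568 untreated, 80645 to 82804 with PTH and 84278 to 89875 with PTHrP, without overlap with the untreated arrays, and 4 of the 8 markers fell with each peptide. Of all genes tested, 17.9% fell with PTH and 12.2% with PTHrP at 6 h. The Actb difference at 6 h was 0.23 to 0.31 untreated, 0.33 to 0.35 with PTH and 0.27 to 0.36 with PTHrP. At 1 h the osteoblast sums overlapped and limma called 0 of the 8 markers with either peptide (0 also at an unadjusted p under 0.05), and the Actb difference was 0.21 to 0.25 untreated, 0.26 to 0.29 with PTH and 0.24 to 0.30 with PTHrP. The part of the osteoblast markers and of the Actb difference in the changes of the 8 genes, and in those of the other lists at 6 and 24 h, was not tested. The macrophage and endothelial sums overlapped between untreated and PTH arrays at each time, while the endothelial sums with PTHrP were below the untreated ones at 24 h and above them at 6 h (570 to 606 against 510 to 539). Of the macrophage markers tested, 9 in all, 1 rose and 1 fell with PTH and 1 rose with PTHrP at 24 h, and of the 8 endothelial markers tested limma called 0 with either peptide, with 0 at an unadjusted p under 0.05. Of all genes tested, 5.69% rose and 5.96% fell with PTH at 24 h, and 3.09% rose with PTHrP. The single macrophage markers called were near these shares.

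**Figure D2:**
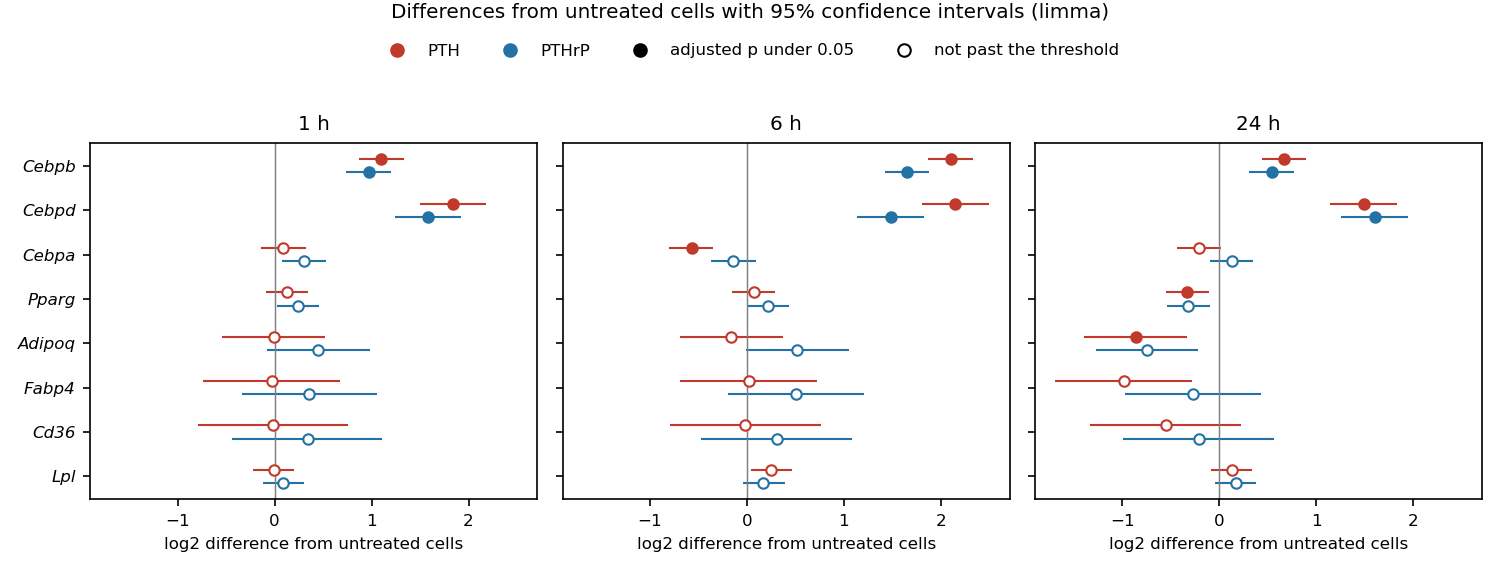
Log2 difference from the untreated cells of the same time (horizontal axis) for the 8 genes, with 95% confidence intervals, for PTH (red) and PTHrP (blue) at 1, 6 and 24 h. Filled points have an adjusted p under 0.05. Cebpb and Cebpd are filled throughout, Cebpa is filled at -0.57 with PTH at 6 h, and Pparg and Adipoq are filled at -0.33 and -0.86 with PTH at 24 h.

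Between the peptides, calls among the 8 genes were made at 6 h. Set against PTH, PTHrP gave lower Cebpb and Cebpd and higher Cebpa at 6 h, and 3 of the 8 genes were called where 7.62% of all genes tested were. The difference was -0.45 ± 0.11 for Cebpb (adjusted p = 0.0126), -0.67 ± 0.17 for Cebpd (adjusted p = 0.0146) and 0.43 ± 0.11 for Cebpa (adjusted p = 0.0175). For these 3 genes and for Adipoq, the PTH and PTHrP arrays of 6 h did not overlap, and the Adipoq difference was 0.68 ± 0.26 (adjusted p = 0.112). Arrays of 25% of all genes tested did not overlap there. The Adipoq difference passed with only the arrays compared (adjusted p = 0.021) and with array weights (0.79, adjusted p = 0.00433). Each of the calls for Cebpb, Cebpd and Cebpa was lost without some of the arrays, and in the test against 1.5-fold. Cebpb was lost without replicate 2 of either peptide at 6 h (adjusted p up to 0.0797), Cebpd without PTH replicate 2 or PTHrP replicate 2 or 3 (up to 0.0879), and Cebpa without PTH replicate 3 or PTHrP replicate 1 or 3 (up to 0.0965). Cebpd was also lost with the mean of its probe sets, and Cebpa with only the arrays compared in the fit. The second Cebpb probe set gave -0.51 (adjusted p = 0.0194).

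At 1 h limma called 0 of the 8 genes between the peptides, with 0 also at an unadjusted p under 0.05, and 0 of 15711 genes, where 632 had an unadjusted p under 0.05. The 95% interval of PTHrP minus PTH at 1 h was -0.36 to 0.10 for Cebpb, -0.60 to 0.08 for Cebpd and -0.30 to 1.10 for Fabp4. At 24 h 0 of the 8 genes were called, with 2 at an unadjusted p under 0.05, and 1.16% of all genes tested were called. The 2 were Cebpa, at 0.33 ± 0.11 (adjusted p = 0.203), and Fabp4, at 0.72 ± 0.34 (adjusted p = 0.506), and both passed with array weights (0.00841 and 0.0116). Without PTHrP replicate 2 at 24 h the Fabp4 difference was 1.33 (adjusted p = 0.0075). For Pparg at 24 h the interval was -0.21 to 0.23, and for Adipoq -0.41 to 0.64. A value that misses the threshold does not show that the peptides act alike.

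The effects also changed with time. For PTH, the Cebpb effect grew by 1.00 ± 0.16 from 1 to 6 h (adjusted p = 4.43e-05) and shrank by 1.43 ± 0.16 to 24 h (a change of -1.43, adjusted p = 3.27e-07). For PTHrP these changes were 0.68 ± 0.16 (adjusted p = 0.00465) and -1.11 ± 0.16 (adjusted p = 2.95e-05). The PTH effect on Cebpa changed by -0.67 ± 0.16 from 1 to 6 h (adjusted p = 0.00334), and that on Cebpd by -0.66 ± 0.24 from 6 to 24 h (adjusted p = 0.0477). From 6 to 24 h the PTHrP effect changed by -1.26 ± 0.36 for Adipoq (adjusted p = 0.0222) and by -0.54 ± 0.15 for Pparg (adjusted p = 0.0177). The same changes with the other peptide were not called. With PTHrP they were -0.45 ± 0.16 for Cebpa (adjusted p = 0.0638) and 0.12 ± 0.24 for Cebpd (0.788). With PTH they were -0.70 ± 0.36 for Adipoq (adjusted p = 0.201) and -0.40 ± 0.15 for Pparg (0.0604). With array weights those of Cebpa (0.017), Adipoq (0.03) and Pparg (0.00164) passed. At the settings used throughout, 2 of the 8 genes were called for PTH from 1 to 6 h and 2 from 6 to 24 h. Of all genes tested, 18.5% and 20.4% were. For PTHrP 1 and 3 were called, where 12.2% and 12.1% of all genes were. Apart from the 3, these counts were near the shares of all genes. The Cebpd call was lost in 16 of 27 fits that left out 1 array, with at least 1 such array in each of the 9 groups and adjusted p up to 0.157. The Pparg call was lost without untreated replicate 1 at 24 h or replicate 3 at 6 h, with adjusted p up to 0.061, and with median centring (0.0582). The Cebpb change with PTHrP from 1 to 6 h was lost with its other probe set (0.055). The Adipoq call was lost without PTHrP replicate 2 at 24 h and 5 other single arrays (untreated replicate 1 at 24 h, untreated replicates 1 and 3 and PTHrP replicates 1 and 3 at 6 h), with adjusted p up to 0.0844.

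Untreated cells were not constant over these times. From 1 to 6 h 1 of the 8 genes was called, Cebpb, where 2.27% of all genes tested were. From 1 to 24 h 3 were called, where 23.1% were. Cebpb was higher at 24 h by 0.33 ± 0.11 (adjusted p = 0.0309) and Lpl by 0.47 ± 0.10 (adjusted p = 0.00124), and Cebpd was lower, with a difference of -0.70 ± 0.17 (adjusted p = 0.00274). The second Lpl probe set gave 0.58 (adjusted p = 0.00235). The Cebpb call at 24 h was lost without untreated replicate 2 or 3 at 1 h or replicate 1 or 2 at 24 h, with adjusted p up to 0.218, and with median centring (0.058) or only the arrays compared (0.055). The second Cebpb probe set, at 0.32, did not pass either (adjusted p = 0.0907). Pparg was higher by 0.29 ± 0.11 at 24 h with an adjusted p of 0.0502, which passed under 9 of 15 other settings and without 10 of 27 single arrays.

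Ranked by group mean, the levels of each gene ran as follows. Cebpb was lowest in untreated cells at 6 h (10.11), then untreated at 1 h (11.14) and 24 h (11.47), then PTHrP at 6 h (11.76), and the other treated groups lay between 12.01 and 12.24. Among neighbours in that order, only the pair of untreated cells at 6 and 1 h and the pair of PTHrP at 6 and 24 h did not overlap. Cebpd had a gap between the untreated group with the highest mean (9.04, at 1 h) and the treated group with the lowest (9.83, PTH at 24 h), and another between PTHrP at 1 h (10.62) and PTHrP at 6 h. Adipoq had a gap between PTH at 6 h (11.22) and PTHrP at 24 h (10.53) and another between PTHrP and untreated cells at 1 h. For Lpl neighbours parted between PTH and untreated cells at 24 h and between PTHrP at 6 h and at 1 h. Neighbouring groups overlapped throughout for Pparg, Cebpa, Fabp4 and Cd36. Group means spanned 2.54 log2 units for Cebpd, 2.13 for Cebpb, 1.57 for Fabp4, 1.49 for Adipoq, 0.90 for Cebpa, 0.82 for Cd36, 0.64 for Lpl and 0.33 for Pparg.

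Replicates of the same group differed far more for some of these genes than for others. The SD within groups was 0.52 log2 units for Cd36, 0.47 for Fabp4 and 0.35 for Adipoq, at percentiles 100, 99.9 and 99.7 of all genes tested, and 0.22 for Cebpd (95.6). It was 0.14 for Cebpb and Cebpa and 0.13 for Pparg and Lpl, at percentiles 50 to 61.8. The wide spread of Fabp4, Adipoq and Cd36 sets the size of change that could be called in them.

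This spread was shared between genes. After group means were removed, the deviations of the 27 arrays correlated between Fabp4 and Cd36 at r = 0.94 and rho = 0.94 (permutation within groups, p = 1e-05 for each, the smallest that 100000 permutations can give, Benjamini-Hochberg 7e-05 over 28 pairs of genes), and at r = 0.92 without the 2 arrays farthest from the median. For Fabp4 and Adipoq r was 0.88 and rho 0.92, with the same p-values, and r was 0.85 without the 2 farthest arrays. Cebpa went with Adipoq at r = 0.86 and rho = 0.89, again with the same p-values, and at 0.87 without the 2 farthest. Cebpb and Fabp4 gave r = 0.22 and rho = 0.30 (permutation p = 0.259 and 0.155, adjusted 0.363 and 0.241). Of the 28 pairs, 11 had an adjusted p under 0.05 for r and 13 for rho. The same replicate had the lowest value of Fabp4, Adipoq and Cd36 in 6 of the 9 groups. The arrays share their normalization, and what set the shared deviations was not tested. Pairs and groups were not counted in this way for other genes. These counts therefore cannot show that shared deviations are particular to the genes followed here.

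**Figure D3:**
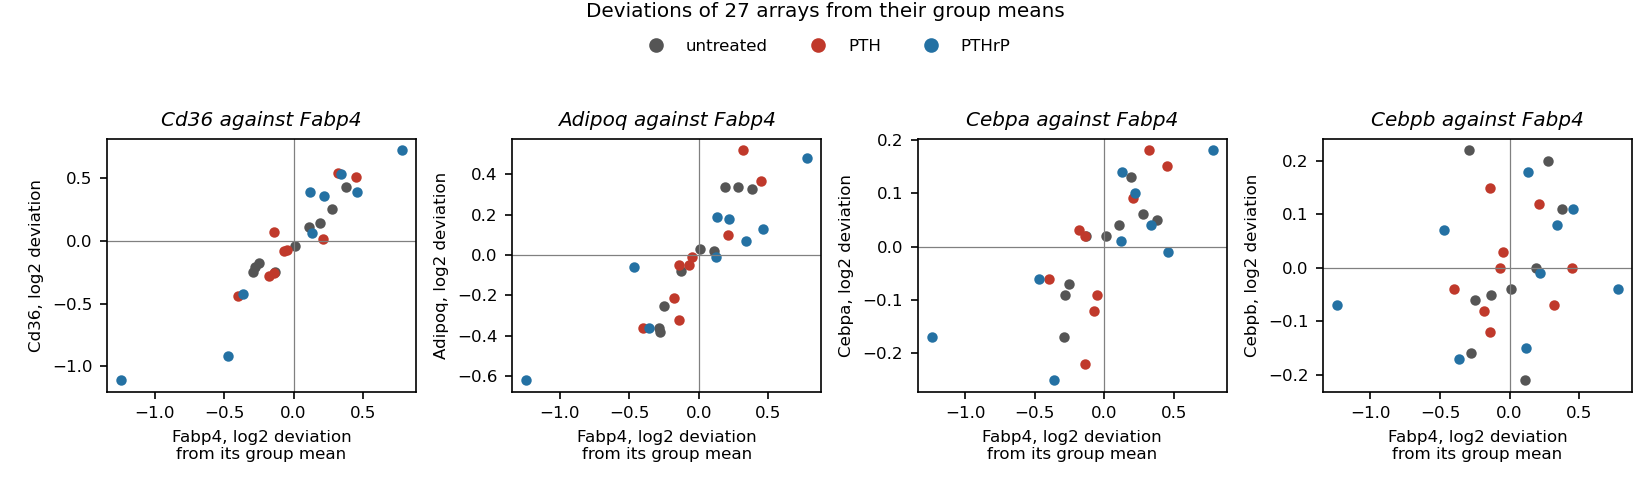
Deviation of each of 27 arrays from its group mean, in log2 units, for Cd36, Adipoq, Cebpa and Cebpb (vertical axes) against Fabp4 (horizontal axis), with points for untreated cells (grey), PTH (red) and PTHrP (blue). Cd36, Adipoq and Cebpa lie along a rising band with r of 0.94, 0.88 and 0.73, and Cebpb does not, with r of 0.22.

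Over the 27 arrays, the genes with patterns most like those of the widely ranging members were found by Pearson's r of log2 values, which mixes differences between groups with the spread within them. For Cebpb they were Pip5k1a (r = 0.911), Itprip (0.91) and Nfkbiz (0.907), and for Cebpd Rnf19b (0.917), Ier5l (0.908) and Gem (0.9). For Fabp4 they were Cd36 (0.888), Wfdc21 (0.857) and Adipoq (0.856). For Adipoq they were Retn (0.925), Cd1d1 (0.904) and Aoc3 (0.894).

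Retn, the gene of the adipocyte hormone resistin, belonged to a list of 9 other products of mature fat cells, 5 of them tested. It was the only one of the 5 called against untreated cells, and it was called at 24 h with both peptides, when 5.96% and 3.02% of all genes fell. Its arrays at 24 h measured 8.84, 8.88 and 8.68 untreated, 7.66, 8.01 and 7.70 with PTH, and 7.92, 7.59 and 8.18 with PTHrP. Treated and untreated arrays did not overlap, and Retn fell with both, with differences of -1.01 ± 0.16 for PTH (adjusted p = 7.83e-05) and -0.90 ± 0.16 for PTHrP (adjusted p = 0.000479). The median of the 5 genes was -0.21 with PTH and -0.17 with PTHrP, against 0 and -0.01 for all genes. Lep and Nnat were below the level for testing, and Cfd and Adrb3 were not analysed here.

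Of the remaining C/EBP genes, the 2 tested both rose at 6 h with each peptide, when 11.4% and 8.7% of all genes rose, and neither was called at 1 or 24 h, where 0 of 2 also had an unadjusted p under 0.05. Ddit3, whose product CHOP pairs with other C/EBP proteins and blocks many of their actions, rose by 1.75 ± 0.18 with PTH (adjusted p = 4.78e-08) and 1.29 ± 0.18 with PTHrP (adjusted p = 8.57e-06). Its untreated level at 24 h, with a mean of 12.78, exceeded that at 6 h, 10.73. Cebpg rose by 0.44 ± 0.11 and 0.42 ± 0.11 (adjusted p = 0.00393 and 0.00781).

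Of 12 tested partners and coregulators of PPAR gamma at 6 h, PTH raised 2 and lowered 3 and PTHrP raised 1 and lowered 2, with medians of -0.09 and 0.02. Of all genes tested, PTH raised 11.4% and lowered 17.9% at that time and PTHrP raised 8.7% and lowered 12.2%, so these counts were near the shares of all genes. Ppard, the gene of the related receptor PPAR delta, measured 8.54, 8.47 and 8.55 untreated at 6 h, 9.52, 9.49 and 9.56 with PTH, and 9.35, 9.03 and 9.04 with PTHrP. It rose by 1.00 ± 0.10 with PTH (adjusted p = 1.9e-08) and 0.62 ± 0.10 with PTHrP (adjusted p = 4.55e-05), without overlap. Ppargc1b, a coactivator, fell at 6 h, with differences of -0.76 ± 0.12 for PTH and -0.33 ± 0.12 for PTHrP (adjusted p = 1.48e-05 and 0.0446). Rxrb, which encodes a retinoid X receptor that dimerizes with PPARs, fell too, with -0.57 ± 0.09 and -0.35 ± 0.09 (adjusted p = 2.16e-05 and 0.00618). Ncoa2, another coactivator, fell by 0.53 ± 0.13 with PTH (adjusted p = 0.00354).

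Regulators known to promote fat cell formation, 14 tested, included 7 lowered and 2 raised by PTH at 6 h, and 3 lowered and 1 raised by PTHrP, with medians of -0.21 and 0. Against the shares of all genes lowered (17.9% and 12.2%) and raised (11.4% and 8.7%), the 7 lowered by PTH stood above, and the other counts were closer. The list was chosen with earlier results of these data known, so this describes it and is no test. Egr2, also known as Krox20, an early inducer of Cebpb, fell, with differences of -1.39 ± 0.15 for PTH and -1.54 ± 0.15 for PTHrP (adjusted p = 5.36e-08 and 1.85e-08). Klf4, which acts with it, gave -0.97 ± 0.14 and -1.26 ± 0.14 (adjusted p = 7.86e-06 and 3.22e-07), and the B-cell factor Ebf1, also active in fat cell formation, -0.79 ± 0.13 and -0.77 ± 0.13 (adjusted p = 2.21e-05 and 5.37e-05). Cebpb was above untreated cells at 6 h, as it already was at 1 h. From 1 to 6 h its mean went from 12.24 to 12.21 with PTH and from 12.11 to 11.76 with PTHrP. In untreated cells it went from 11.14 to 10.11. At 24 h Klf15 rose with PTH by 0.71 ± 0.17 (adjusted p = 0.00699).

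Of 12 tested regulators known to oppose fat cell formation, some were called at each time. At 1 h PTH raised 4 and lowered 0 (1 at an unadjusted p under 0.05), and PTHrP raised 5 and lowered 0 (2 unadjusted), against the 1.44% and 1.57% of all genes tested that rose, and the list medians were 0.12 and 0.12. This list, too, was chosen with earlier results known. Foxc2, a forkhead factor, measured 8.28, 8.25 and 8.30 untreated at 1 h, 11.03, 11.21 and 11.09 with PTH, and 11.13, 11.08 and 10.77 with PTHrP. It rose by 2.84 ± 0.12 and 2.72 ± 0.12 (adjusted p = 1.51e-14 and 6.01e-14) and was still up by 0.45 ± 0.12 and 0.56 ± 0.12 at 24 h (adjusted p = 0.00938 and 0.00251). Hes1, a Notch target, rose by 1.41 ± 0.12 and 1.21 ± 0.12 at 1 h (adjusted p = 5.72e-09 and 1.11e-07). At 6 h 7 of the 12 were called with each peptide, 3 up and 4 down with PTH and 4 up and 3 down with PTHrP, where 29.3% and 20.9% of all genes were called. Klf2, a repressor of Pparg, measured 10.65, 10.74 and 10.69 untreated at 6 h, 8.25, 8.77 and 8.28 with PTH, and 8.57, 8.30 and 8.20 with PTHrP. It fell with both peptides, by -2.26 ± 0.14 and -2.34 ± 0.14 on the log2 scale (adjusted p = 2.79e-12 and 4.62e-12), without overlap. Zfp521, which restrains Ebf1 and Zfp423, fell at 6 h, with -1.96 ± 0.13 and -1.19 ± 0.13 (adjusted p = 7.72e-12 and 1.13e-07).

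**Figure D4:**
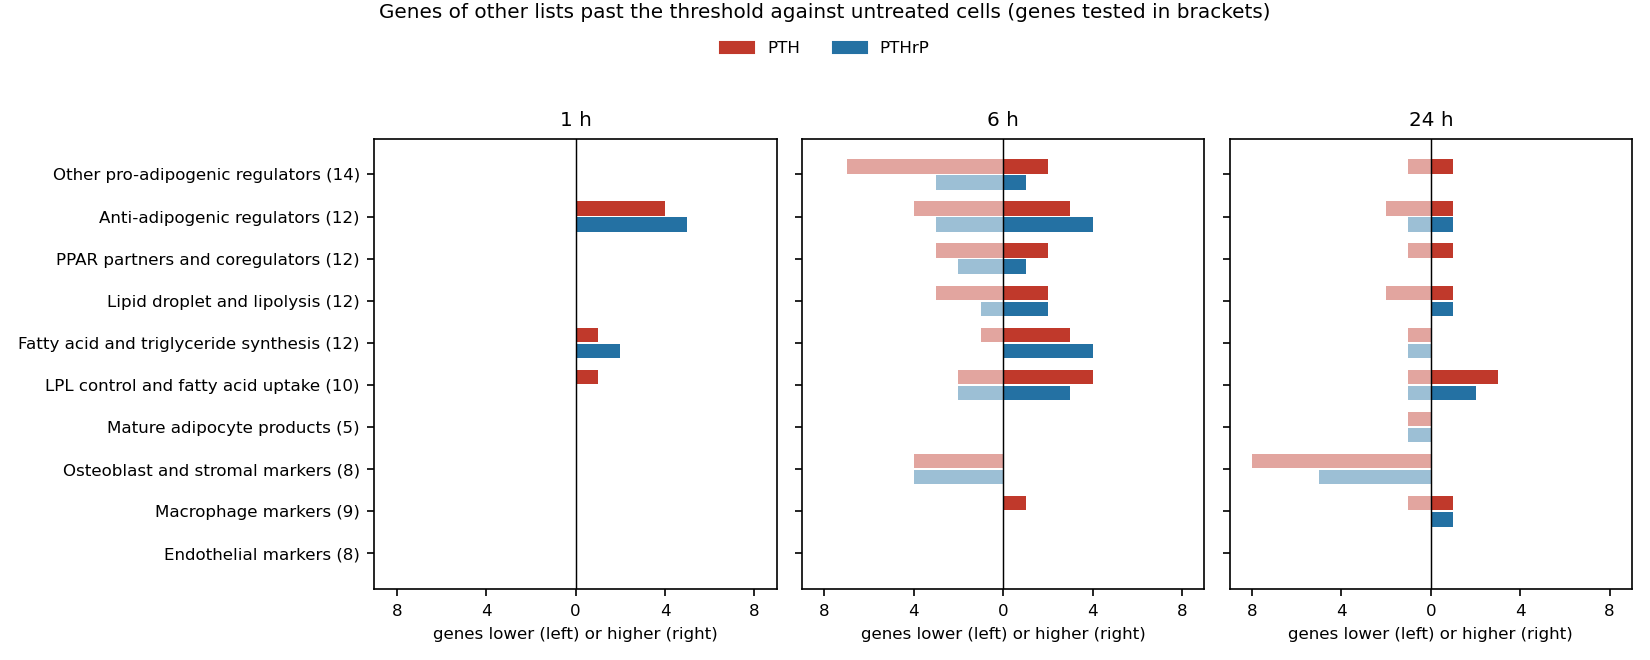
Number of genes past the threshold against untreated cells, lower to the left and higher to the right, for each gene list with the number tested in brackets, with PTH (red) and PTHrP (blue) at 1, 6 and 24 h. The anti-adipogenic list has 4 and 5 genes up at 1 h, the pro-adipogenic list 7 down with PTH at 6 h, and the osteoblast and stromal markers 8 and 5 down at 24 h.

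Of 12 tested genes of fatty acid and triglyceride synthesis, at 6 h PTH raised 3 and lowered 1, and PTHrP raised 4 and lowered 0 (0 also at an unadjusted p under 0.05), with medians of 0.08 and 0.11. Of all genes, 11.4% rose with PTH and 8.7% with PTHrP. Dgat1, which encodes an enzyme of the final step of triglyceride synthesis, measured 8.54, 8.72 and 8.6 untreated at 6 h, 10.74, 10.94 and 10.83 with PTH, and 10.26, 9.86 and 10.00 with PTHrP. It rose by 2.22 ± 0.15 and 1.42 ± 0.15 (adjusted p = 2.01e-11 and 1.08e-07), after 1.29 ± 0.15 and 1.16 ± 0.15 at 1 h (adjusted p = 2.17e-06 and 1.34e-05). Dgat2, of the same step, rose by 0.79 ± 0.10 and 0.56 ± 0.10 at 6 h (adjusted p = 1.64e-06 and 0.000264). Acly, which makes acetyl-CoA for fatty acids, rose by 0.62 ± 0.08 and 0.30 ± 0.08 (adjusted p = 8.42e-07 and 0.006). Agpat2, of an earlier step, rose by 0.65 ± 0.12 with PTHrP at 1 h (adjusted p = 0.00154).

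Among 10 tested genes that control lipoprotein lipase or handle fatty acids, PTH raised 4 and lowered 2 at 6 h and PTHrP raised 3 and lowered 2, with medians of -0.05 and 0.20. The shares of all genes at 6 h were 11.4% raised and 17.9% lowered with PTH and 8.7% and 12.2% with PTHrP, and the 2 lowered were near them. At 24 h PTH raised 3 and lowered 1, and PTHrP raised 2 and lowered 1, with medians of 0.09 and 0.06, when 5.69% and 3.09% of all genes rose and 5.96% and 3.02% fell. Angptl4, whose product inhibits lipoprotein lipase, rose by 0.74 ± 0.16 with PTH and 1.07 ± 0.16 with PTHrP at 6 h (adjusted p = 0.000606 and 1.27e-05). It was still up by 0.62 ± 0.16 and 0.71 ± 0.16 at 24 h (adjusted p = 0.00845 and 0.00419). Acsl4, which activates fatty acids, rose by 2.13 ± 0.23 and 0.89 ± 0.23 at 6 h (adjusted p = 6.91e-08 and 0.00612). The carriers Fabp5 and Fabp3, relatives of Fabp4, fell. The differences were -1.30 ± 0.10 and -0.60 ± 0.10 for Fabp5 at 6 h (adjusted p = 4.82e-10 and 0.000124) and -0.94 ± 0.14 and -0.63 ± 0.14 for Fabp3 at 24 h (adjusted p = 2.54e-05 and 0.00359).

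Of 12 tested genes of the lipid droplet and of lipolysis, PTH lowered 2 and raised 1 at 24 h, with a median of -0.01, and PTHrP lowered 0 (0 also unadjusted) and raised 1, with a median of -0.04. Of all genes, 5.96% fell and 5.69% rose with PTH at that time, and 3.02% and 3.09% with PTHrP. At 6 h PTH raised 2 and lowered 3 and PTHrP raised 2 and lowered 1, with medians of -0.07 and 0.27, near the shares of all genes at 6 h. Cidec, a droplet protein of fat cells, measured 5.20, 5.01 and 4.94 untreated and 4.65, 4.29 and 4.28 with PTH. All 3 PTH arrays and 1 untreated array were below the log2 level of 5 that the filter asks for, and Cidec passed it through other arrays. It is 1 of the 2 counted as lowered (adjusted p = 0.00701), but values this dim do not measure the size of a fall. G0s2, an inhibitor of lipolysis, fell by 0.58 ± 0.18 (adjusted p = 0.0321). Plin2, a droplet coat protein of many cell types, rose by 0.41 ± 0.11 with PTH and 0.48 ± 0.11 with PTHrP (adjusted p = 0.0165 and 0.00776). At 6 h Cav1, the caveolin gene, fell, with -0.80 ± 0.12 and -0.54 ± 0.12 (adjusted p = 7.87e-06 and 0.00144).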

How the data were processed

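RNA from KUSA4b10 cells was measured on 27 single-colour Affymetrix arrays. The authors deposited intensity values per probe set on a linear scale. RMA is the tool named per the submitters' processing notes, and per the design text the values were normalized again for the deposit. For the RMA version, background model and probe set definitions, the sources used here give nothing. RMA draws the distributions of arrays together and compresses changes of dim genes. Of 45101 probe sets, 64 controls were left out of the tests, 34945 had 1 symbol in the platform annotation, 932 several and 9211, controls included, none listed. Log2 was taken, each gene kept its probe set with the highest mean, and genes reaching log2 of 5 on 3 arrays were tested.

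limma 3.58.1 in R 4.3.3 fitted 9 group means to all arrays (lmFit, eBayes), two-sided, with Benjamini-Hochberg adjustment over 15711 genes in each of 15 comparisons, a threshold of 0.05, and 18 residual and 5.54 prior degrees of freedom. Changes of effect with time were contrasts of the same fit. The script was tested on simulated data. Arrays, not reads, limit precision, and the median SE of a difference was 0.102. The 8 genes and all gene lists were chosen with earlier results of these data known. Their counts beside the shares of all genes are therefore a description and not a test. Besides the 8 genes, the text names up to 4 genes per list with the largest differences among those past the threshold against untreated cells, and the 3 genes most like each member whose group means span at least 1 log2 unit. Osteoblast, macrophage and endothelial markers were counted, and named where their level bears on a member.

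With group means removed, deviations of same-numbered arrays correlated at 0.19, 0.27 and 0.45 between untreated cells and PTHrP at 1 h, the only 1 of 9 combinations of groups with every value over 0.1. For that pair, the replicate block left both calls in place. Elsewhere numbers were not taken as pairs. Alternatives varied the filter, probe set, normalization, offset, arrays fitted, array weights, prior, threshold, block and arrays left out. The table holds no slide, scan date or background to vary. Positions are RefSeq's on GRCm38.p6.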

Additional observations from a re-analysis of the deposited data

Results flagged for a closer look

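A ligand's effect against untreated cells of the same time differed between times, by the test of the change itself in the limma fit, in 8 cases. Cebpb showed 4 of them, with a change of effect of 1 log2 unit from 1 to 6 h and -1.43 from 6 to 24 h with PTH, and of 0.68 and -1.11 with PTHrP. The untreated arrays of Cebpb at 6 h, between 10.05 and 10.22, enter each of these changes. For Cebpa the PTH effect changed by -0.67 from 1 to 6 h, and for Cebpd by -0.66 from 6 to 24 h. From 6 to 24 h the PTHrP effect changed by -1.26 for Adipoq and by -0.54 for Pparg. With the other peptide these changes were not called. They were -0.45 for Cebpa and 0.12 for Cebpd with PTHrP, and -0.70 for Adipoq and -0.40 for Pparg with PTH. The Adipoq arrays with PTHrP were all at or above 11.54 at 6 h and all at or below 11.02 at 24 h. For PTH 2 of the 8 genes were called from 1 to 6 h and 2 from 6 to 24 h, where 18.5% and 20.4% of all genes tested were. For PTHrP 1 and 3 were called, where 12.2% and 12.1% were. The 3 was above its share, and the other counts were near theirs. Of the 3, the Adipoq and Pparg calls were each lost without some single arrays. Such counts are a description and not a test. No cause was tested for any of these changes.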

How the results depend on the processing

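Each comparison was repeated under 14 other settings chosen at the outset, 1 chosen after seeing the data (leaving out PTHrP replicate 3 at 1 h and replicate 2 at 24 h), and without each of 27 arrays. No called difference changed sign. Of 30 called differences 10 stayed past the threshold in all 42 settings, and of 90 uncalled ones 67 never passed it. The numbers of members called follow. Shares of all genes under the same settings are not given beside them. The counts therefore cannot show whether a change was particular to the members. In the test against 1.5-fold, the count became 1 for PTH at 24 h (from 4), 1 for PTHrP at 1 h and 1 at 24 h (from 2 each), 0 for PTHrP against PTH at 6 h (from 3), 0 and 1 for the changes of the PTH effect to 6 h and to 24 h (from 2 each), 0 and 0 for those of PTHrP (from 1 and 3), and 0 for untreated cells at 6 and at 24 h (from 1 and 3). With array weights it became 7 for PTH at 24 h, 6 for PTHrP at 6 h (from 2), 2 for PTHrP against PTH at 24 h (from 0), 5 for the later change of the PTH effect, 2 for the earlier change of the PTHrP effect, and 2 and 5 for untreated cells. With only the arrays compared it was 4 for PTHrP at 6 h and 4 for the later PTH change. That change gave 1 with no filter, the mean of all probe sets, median centring or the replicate block within each time. The earlier PTHrP change gave 0 with the probe set of highest SD and 2 with the offset, the intensity trend or both arrays left out, which also gave 1 for PTHrP against PTH at 24 h. Without single arrays, counts ran from 2 to 5 for PTH at 24 h, 1 to 3 for PTHrP against PTH at 6 h and 0 to 1 at 24 h, 1 to 3 for the later PTH change, 1 to 2 and 1 to 3 for the PTHrP changes, and 1 to 2 for untreated cells at 6 h. The replicate block, where numbers may not pair samples, left 3 of 4 calls for PTH at 24 h, Pparg being lost, and changed the other counts against untreated cells by 0. Counts for other lists against untreated cells shifted by up to 2 genes in either direction under the filter, probe set, normalization and array omissions tried for them. Signal was dim for Cd36, Cidec and the weaker Fabp4, Cebpd and Cd36 probe sets, with no background level available to set it against. The wide spread of Cd36 within groups also limited its tests.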
